A study of Homo sapiens with 5 samples.

Results

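The genes described here are 10 genes of the mitochondrial route to cell death: BAX, BCL2, BCL2L1, MCL1, BNIP3, APAF1, CASP9, ENDOG, BIRC5 and NAIP. They were taken by name from the array's gene annotation, which listed 11 probes for them among 3048 probes and 2078 named genes; CASP9 had 2 probes and the others 1 each. The cells were SK-MEL28, an established human melanoma line, in 3 states: treated with cisplatin and electroporation, treated with cisplatin alone, and not treated. Cisplatin is a platinum drug that crosslinks DNA, and electroporation opens the cell membrane to it with electric pulses. Here there were 8 pulses, each lasting 100 µs, at a field of 1300 V/cm and a rate of 1 Hz. Each two-colour array carried Cy5-labelled RNA of treated cells and Cy3-labelled RNA of untreated cells, with 2 arrays for the combination and 3 for cisplatin alone. All groups are of this 1 cell line. No source used here gives the drug dose or exposure time behind the RNA, or says whether cells given cisplatin alone were handled in electroporation buffer, and cells given pulses alone were not analysed here. The study asked which genes of apoptosis and cancer respond to each treatment.

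In this pathway, proteins of the BCL2 family decide whether the outer mitochondrial membrane is opened. BAX opens it and BCL2, BCL2L1 and MCL1 hold it closed. Cytochrome c that leaks out binds APAF1, which assembles into the apoptosome and activates the initiator caspase CASP9, while ENDOG is a mitochondrial nuclease that can cut DNA in the nucleus. BIRC5 and NAIP belong to the family of inhibitor of apoptosis proteins. DNA damage by platinum drugs is a classic trigger of this route, and melanoma cells are known for resisting it.

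Of the 10 genes, 6 gave signal on every array, and their ratios of treated to untreated RNA were small. BIRC5, which encodes survivin, and NAIP read below untreated cells on all 5 arrays. For NAIP the sign on the second cisplatin array rested on 1 of its 4 spots. BNIP3 read above untreated cells on both arrays of the combination, and the ratios of ENDOG, APAF1 and CASP9 differed between arrays of the same treatment. None of the 11 probes passed the limma test at an adjusted p under 0.05, for the combination, for cisplatin alone, or for the difference between them. The background was the same: 0% of the 3048 probes passed in each of the comparisons. At an unadjusted p under 0.05 the limma test marked 304 probes for the combination, 337 for cisplatin and 107 for the difference, and the smallest adjusted p-values were 0.0932, 0.106 and 0.994. Without the third cisplatin array 1 probe passed for the combination, and it was not a probe of the 10 genes. Leaving out an array of the combination leaves 1 array in that group. The counts then rest on an assumed spread for that array and are given only in the last section, on the processing. Over the 10 genes, each by its brighter probe, the median log2 ratio was -0.0034 for the combination and -0.012 for cisplatin, against -0.0066 and -0.0014 over all probes. These medians say little about the members, since 4 of the 10 genes were too dim for a ratio and 1 of them, MCL1, supplies a middle value in both.

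The arrays held 12788 spots each, with 4 or more spots per probe. A probe was taken as above background where a share of at least 0.5 of its spots was brighter than the surrounding background by more than 2 of its standard deviations. That held for 1216 to 1824 probes of an array in Cy5 and for 1535 to 1843 in Cy3, and 1461 probes met it on each of the arrays in Cy5, Cy3 or both. All 6 measured melanocyte markers (TYR, TYRP1, MLANA, MITF, SOX10 and S100B) stood above background in untreated RNA on every array. So did 4 of 4 epithelium markers, 2 of 4 endothelium, 2 of 3 fibroblast and 1 of 2 leukocyte markers; what these probes bind was not tested. On the second array of the combination, 788 spots lay over 4 times above or below the median of their probe's spots, against 18 to 112 spots on the other 4 arrays. Precision is limited by how few arrays there are: among the 1461 probes, the median 95% confidence interval reached 0.177 to either side for the combination and 0.145 for cisplatin, on the log2 scale. Nothing in the labels ties replicates to separate cultures, and each p-value therefore rests on an array-to-array spread that may be technical. The dyes were not exchanged on any array, so a dye preference of a probe remains in its ratio to untreated cells. In bulk RNA, fewer cells that express a gene and less RNA per cell cannot be told apart.

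**Figure D1:**
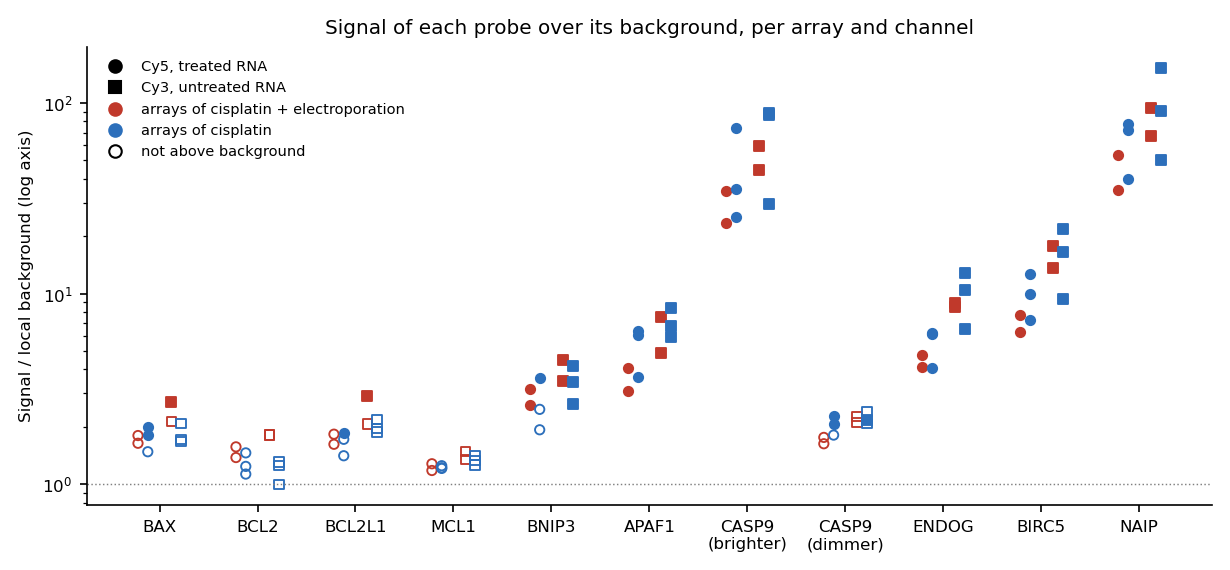
Signal over local background (log axis) for the 11 probes, each point the median foreground of a probe's spots over their median background on 1 array; circles are Cy5 (treated RNA), squares Cy3 (untreated RNA), red the 2 arrays of cisplatin with electroporation, blue the 3 of cisplatin, and open symbols probes not above background in that channel. BCL2 and MCL1 are open on every array, while APAF1, ENDOG, BIRC5, NAIP and the brighter CASP9 probe are filled on every array.

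The gatekeepers of the mitochondrial membrane were mostly below the reach of these arrays. Signal over background is given here as the median foreground of a probe's spots divided by their median local background, so that 1 means no signal. The MCL1 probe (VM_H200007193, 8 spots) read between 1.18 and 1.28 in treated RNA and between 1.26 and 1.48 in untreated RNA. The BCL2 probe (VM_H300021315) read between 1.13 and 1.57 in treated RNA and between 1 and 1.81 in untreated RNA. Neither was above background in any channel of any array, so no ratio is given for either gene. Both encode survival proteins, and their transcripts were not detectable here, which does not show that they are absent.

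BAX, the pore-forming death effector (VM_H200007440), had a signal over background of 1.80 and 1.64 in treated RNA on the arrays of the combination and of 1.48, 1.82 and 2.00 on those of cisplatin. Untreated RNA gave 2.14 and 2.71 on the arrays of the combination and 1.71, 2.08 and 1.68 on those of cisplatin. The probe was above background in treated RNA on 0 of 2 arrays of the combination and on 2 of 3 cisplatin arrays, and in untreated RNA on 1 of 2 arrays of the combination and on 0 of 3 cisplatin arrays. With untreated RNA not well above background on the cisplatin arrays, only a bound can be given there, and the measured levels put BAX at least 1.02-fold higher after cisplatin than in untreated cells. That is no difference beyond the error: the 95% interval of the log2 ratio ran from -0.0037 to 0.20 (limma adjusted p = 0.472), and treated RNA was itself not above background on the first cisplatin array. For the combination the bound was under 1, so no fold is given.

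BCL2L1, which encodes the survival protein BCL-xL (VM_H200018194, 8 spots), read between 1.41 and 1.86 in treated RNA and between 1.88 and 2.92 in untreated RNA. It was above background in treated RNA on 1 of 3 cisplatin arrays and in untreated RNA on 1 of 2 arrays of the combination, and its bounds were under 1 for both treatments. One of its 8 spots stood apart on the second array of the combination, with a foreground of 9918 in Cy5 and 11434 in Cy3. Its other spots on that array reached at most 29 in Cy5 and 42 in Cy3, as the plot of single spots shows. An MCL1 spot on the same array read 46 in Cy5 and 89 in Cy3, against medians of 16.5 and 17.5 over the 8 spots.

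**Figure D2:**
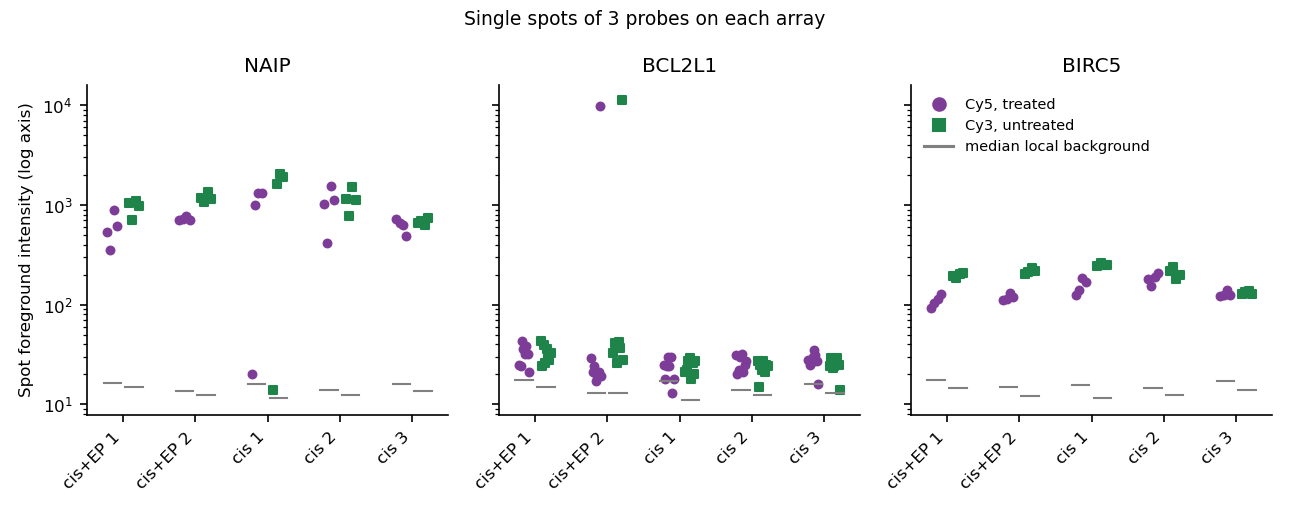
Foreground intensity (log axis) of every spot of the NAIP, BCL2L1 and BIRC5 probes on the 2 arrays of cisplatin with electroporation (cis+EP) and the 3 of cisplatin (cis); circles are Cy5, squares Cy3, and grey bars the median local background. A single BCL2L1 spot near 11434 on the second combination array and a single NAIP spot at background on the first cisplatin array stand apart, while the BIRC5 spots lie close together.

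BNIP3 encodes a mitochondrial membrane protein of the BCL2 family that is known to be induced by low oxygen and to take part in the removal of mitochondria. Its probe (VM_H200006698) had a log2 ratio to untreated RNA of 0.14 and 0.13 on the arrays of the combination and of -0.048, 0.075 and -0.10 on those of cisplatin. Both arrays of the combination lay above all 3 cisplatin arrays, an order shown by 7.32% of all probes and 6.3% of the 1461 above background. The mean was 0.14 for the combination (SE 0.051, n = 2, limma adjusted p = 0.463) and -0.024 for cisplatin (SE 0.042, n = 3, limma adjusted p = 0.923). The difference of combination minus cisplatin was 0.16 (SE 0.066, 95% interval -0.0044 to 0.33, limma adjusted p = 0.994). BNIP3 was dim, with a signal over background between 1.93 and 3.62 in treated RNA and between 2.62 and 4.46 in untreated RNA. In treated RNA it was above background on both arrays of the combination and on 1 of 3 cisplatin arrays. The cisplatin ratio, the difference and the order of the arrays therefore rest in part on a treated channel that was not above background on the first and the third cisplatin array. The offset of 50 that was added to the intensities draws such dim ratios toward 0. With an offset of 0 the ratio for the combination was 0.29, with a larger error (SE 0.164, limma adjusted p = 0.626). Without the third cisplatin array the cisplatin ratio turned to 0.014.

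APAF1, the scaffold of the apoptosome (VM_H200006422), had a log2 ratio of -0.051 and 0.037 on the arrays of the combination and of -0.045, 0.19 and 0.21 on those of cisplatin. The arrays of the combination lay on either side of 0, and the first cisplatin array stood apart from the rest of its group. The mean was -0.0068 for the combination (SE 0.072, limma adjusted p = 0.987) and 0.12 for cisplatin (SE 0.059, limma adjusted p = 0.560), and the interval for cisplatin ran from -0.029 to 0.27. The combination minus cisplatin was -0.13 (SE 0.093). On the first array of the combination the 4 spots spread from -0.38 to 0.35, more widely than the arrays differed. That array read 0.30 in the authors' deposited table, where the second array of the combination read 0.045. Without the first array of the combination its mean ratio turned to 0.037, and without the first cisplatin array the cisplatin ratio was 0.20.

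CASP9, the caspase that the apoptosome activates, was read by 2 probes of very unequal signal. The brighter probe (VM_H300002897) had a signal over background between 23.4 and 74.3 in treated RNA and between 29.7 and 89.0 in untreated RNA. The dimmer probe (VM_H200011079), annotated to the same transcript, read between 1.63 and 2.28 in treated RNA and between 2.08 and 2.39 in untreated RNA. Whether either probe measures only CASP9 was not tested. On the brighter probe the log2 ratio was -0.10 and -0.21 on the arrays of the combination and -0.25, 0.083 and 0.083 on those of cisplatin. The second and the third cisplatin array thus lay above 0 and the first below both arrays of the combination. The mean was -0.16 for the combination (SE 0.092, limma adjusted p = 0.637) and -0.028 for cisplatin (SE 0.075, limma adjusted p = 0.95). The sign for cisplatin rested on the first array, since without it the ratio was 0.083. The dimmer probe was not above background in either channel on the arrays of the combination, where it gives no ratio. It was above background in treated RNA on 2 of 3 cisplatin arrays and in untreated RNA on 1 of 3, with a log2 ratio of 0.061 (SE 0.036, limma adjusted p = 0.636).

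ENDOG, the mitochondrial endonuclease G (VM_H200008585), had the lowest mean ratio of the 10 genes after cisplatin. Its log2 ratio was -0.23 and -0.048 on the arrays of the combination and 0.0030, -0.34 and -0.28 on those of cisplatin. It lay below 0 on 4 of 5 arrays, and the groups overlapped. The mean was -0.14 for the combination (SE 0.094, limma adjusted p = 0.703) and -0.21 for cisplatin (SE 0.077, 95% interval -0.40 to -0.015, limma adjusted p = 0.428). On the processed scale the cisplatin mean is 0.866 times the untreated level. The spots of a single array spread as widely as the arrays did, with a standard deviation over the 4 spots between 0.13 and 0.28. With an offset of 0 the cisplatin ratio was -0.34, with a larger error (SE 0.142, limma adjusted p = 0.521), and without the first cisplatin array it was -0.31. The combination minus cisplatin was 0.071 (SE 0.12) and turned to -0.019 without the second array of the combination.

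BIRC5, which encodes survivin, is a protein of dividing cells that serves chromosome segregation in mitosis and is highly expressed in most melanomas. The probe (VM_H300019718) had a signal over background of 6.26 and 7.73 in treated RNA on the arrays of the combination, against 13.6 and 17.8 in untreated RNA. On the cisplatin arrays it was 9.97, 12.7 and 7.29 in treated RNA, against 21.9, 16.6 and 9.39 in untreated RNA. After normalization the log2 ratio was -0.17 and -0.12 on the arrays of the combination and -0.095, -0.085 and -0.058 on those of cisplatin. All 5 arrays lay below 0, and both arrays of the combination lay below all 3 cisplatin arrays. Of all probes, 9.42% were below 0 on every array and 10.7% had the combination below cisplatin throughout; among the 1461 above background these shares were 13.3% and 10.1%.

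The BIRC5 mean was -0.15 for the combination (SE 0.037, 95% interval -0.24 to -0.056, n = 2), or 0.903 times the untreated level on the processed scale. Its limma p of 0.00841 was the smallest of the 11 probes in any comparison and became 0.352 after adjustment. This unadjusted limma p depended on the setting and was 0.00464 with median centring without loess. It was 0.0721 (SE 0.0715) with only probes above background on every array in the fit, and 0.259 (SE 0.141) with an offset of 0. For cisplatin the mean was -0.079 (SE 0.030, 95% interval -0.15 to -0.0042, n = 3, limma adjusted p = 0.428). The combination minus cisplatin was -0.068 (SE 0.047, 95% interval -0.19 to 0.050, limma adjusted p = 0.994). The 4 spots on the second array of the combination agreed to a standard deviation of 0.033, and those on the second cisplatin array to 0.27.

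NAIP is the founding human member of the inhibitor of apoptosis family and also a sensor of bacterial proteins. Its locus holds several near-identical partial copies, so its probe (VM_H200006605) may bind more than 1 transcript, and its values are uncertain in that respect. The signal over background was between 34.9 and 77.4 in treated RNA and between 50.3 and 153 in untreated RNA. The log2 ratio was -0.13 and -0.15 on the arrays of the combination and -0.027, -0.16 and -0.16 on those of cisplatin. All 5 arrays lay below 0 by the mean over spots, and the groups overlapped. Below 0 on every array were 9.42% of all probes and 13.3% of the 1461 above background. The mean was -0.14 for the combination (SE 0.048, limma adjusted p = 0.448) and -0.12 for cisplatin (SE 0.039, limma adjusted p = 0.397). The combination minus cisplatin was -0.022 (SE 0.062) and turned to 0.023 without the first cisplatin array.

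On the first cisplatin array 1 of the 4 NAIP spots was empty, with a foreground of 20 in Cy5 and 14 in Cy3, while the medians over the 4 spots were 1158 and 1759. Left out, it moved that array to -0.054 and the cisplatin mean to -0.12 (limma adjusted p = 0.281). The spots disagreed on other arrays as well and spread from -0.76 to 0.11 on the second cisplatin array. The place of that array below 0 rested on the spot at -0.76, as its other spots read -0.057, 0.11 and 0.077. With the median over spots in place of the mean, the cisplatin ratio was -0.026 and the combination minus cisplatin -0.16.

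**Figure D3:**
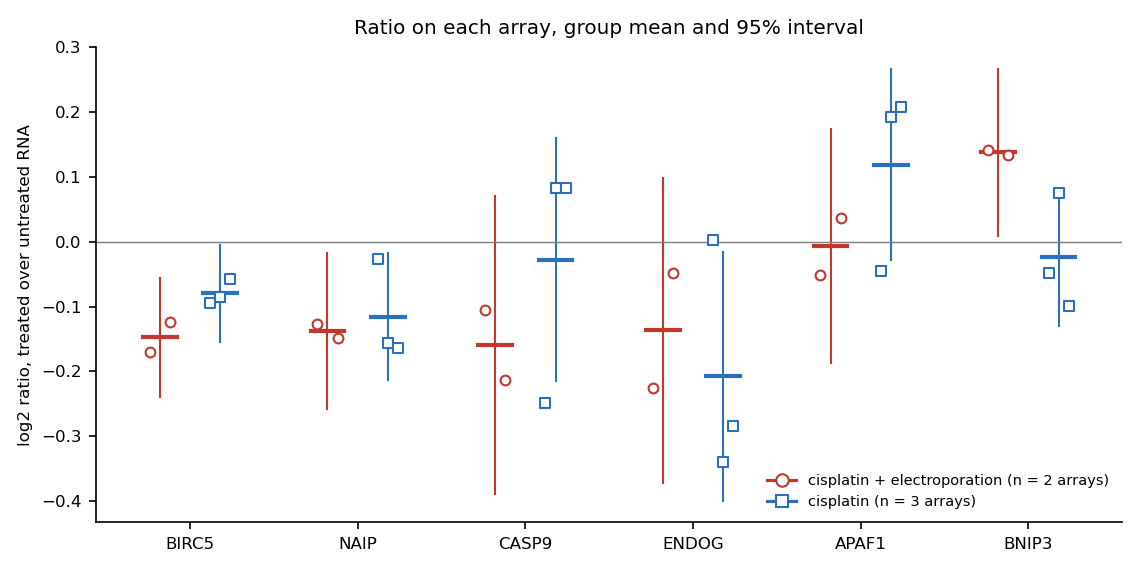
Log2 ratio of treated over untreated RNA for the 6 genes above background on every array, with cisplatin with electroporation (red circles, 2 arrays) to the left of cisplatin (blue squares, 3 arrays); thick bars are group means and thin lines 95% intervals from limma. BIRC5 and NAIP lie below 0 on all 5 arrays, and the arrays of the combination lie above those of cisplatin for BNIP3 and below them for BIRC5. The place of NAIP below 0 on the second cisplatin array rests on a single spot.

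In counts, 2 of the 11 probes read below untreated cells at an unadjusted p under 0.05 for the combination, NAIP and BIRC5, and 1 above, BNIP3. Over all probes the same test marked 6.99% lower and 2.99% higher, and among the 1461 probes above background on every array 12% and 4.65%. For cisplatin 3 of the 11 were lower, NAIP, BIRC5 and ENDOG, and 0 higher, against 6.1% lower and 4.95% higher over all probes and 11.7% and 8.56% among those above background. For the difference 0 of the 11 reached this level, against 2.23% of all probes with the combination lower and 1.28% with it higher, and 4.24% and 2.12% of those above background. Above 0 on all arrays were 2 of the 11 probes, for BCL2 and the dimmer one for CASP9, neither of which was above background on every array. The same held for 6.66% of all probes and 7.87% of the 1461. Below 0 on all arrays were 2 of the 11, BIRC5 and NAIP, against 9.42% of all probes and 13.3% of the 1461. With 11 probes, each of these counts rests on 0 to 3 of them. The counts and shares at an unadjusted p under 0.05 come from the fit of all probes. With only the 1461 probes in the fit, the limma p for the combination was 0.0721 for BIRC5, 0.106 for NAIP and 0.11 for BNIP3. For cisplatin it was then 0.0341 for ENDOG, 0.0966 for NAIP and 0.211 for BIRC5. That fit marked 189 of the 1461 probes for the combination and 213 for cisplatin.

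The rest of the pathway was read from a list of 50 further genes, of which 27 had a probe. Each was read by its brighter probe, and for 14 of them that probe stood above background on every array. None of the 27 passed the limma test in any comparison. At an unadjusted p under 0.05, 1 was higher and 2 lower for the combination, 2 higher and 0 lower for cisplatin, and 0 higher and 1 lower for the difference. Over all probes the shares were 2.99% higher and 6.99% lower for the combination and 4.95% and 6.1% for cisplatin. For the difference they were 1.28% and 2.23%. The list's median log2 ratio was 0.032 for the combination and 0.017 for cisplatin, against -0.0066 and -0.0014 over all probes. These medians say little about the list, since they take in genes that were not above background on every array. The cisplatin value is that of such a gene, BIK of the death-promoting BCL2 family.

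Among the voltage-dependent anion channels, which carry metabolites through the outer mitochondrial membrane, VDAC2 is known to hold BAK1 inactive. VDAC2 read 0.095 and 0.19 on the arrays of the combination and 0.20, 0.10 and 0.055 on those of cisplatin. It lay above 0 on all 5 arrays, as did 6.66% of all probes and 7.87% of those above background on every array. The mean was 0.14 for the combination (SE 0.051, limma adjusted p = 0.459) and 0.12 for cisplatin (SE 0.042, limma adjusted p = 0.412). VDAC3 read -0.14 and -0.12 on the arrays of the combination and 0.11, 0.041 and -0.043 on those of cisplatin. The combination lay below cisplatin throughout, an order shown by 10.7% of all probes and 10.1% of those above background on every array. The combination minus cisplatin was -0.17 (SE 0.062, limma adjusted p = 0.994). On its own the ratio of VDAC3 for the combination was -0.13 (SE 0.048, limma adjusted p = 0.461).

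Of the death-promoting BCL2 family, 10 of 15 listed genes had a probe and 3 of those stood above background on every array. BCL2L11, the BH3-only protein BIM, read 0.11 and 0.11 on the arrays of the combination and -0.11, -0.043 and 0.13 on those of cisplatin, where the third array was as high as the combination. The mean of its brighter probe for the combination was 0.11 (SE 0.062, limma adjusted p = 0.641). BNIP2 read 0.099 and 0.035 on the arrays of the combination and between -0.048 and -0.011 on those of cisplatin. Of the survival family BAG1, a co-chaperone that binds BCL2, read 0.069 for cisplatin (SE 0.046, limma adjusted p = 0.673).

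Downstream of the apoptosome, DFFA, the inhibitor of the caspase-activated nuclease, read 0.10 for the combination (SE 0.062, limma adjusted p = 0.659) and 0.14 for cisplatin (SE 0.051, limma adjusted p = 0.428). The repair enzyme PARP1, a classic caspase substrate, read 0.089 for cisplatin (SE 0.052), with 0.23 on the first array against 0.0095 and 0.028 on the second and the third. Among caspase inhibitors BIRC2 read 0.11 for the combination (SE 0.094) and 0.11 for cisplatin (SE 0.077), where single arrays ran from -0.12 to 0.27. XIAP, the strongest direct inhibitor of caspases in the family, differed between combination and cisplatin by 0.033 (SE 0.049, 95% interval -0.090 to 0.16). DFFB, the caspase-activated nuclease itself, was the other gene lower at an unadjusted p under 0.05 for the combination, at -0.32 (SE 0.11, limma adjusted p = 0.447). It is named after its values were seen. That probe was not above background on every array and read -0.11 and -0.54 on the arrays of the combination. The second DFFB probe was above background on all 5 arrays and lay on the other side of 0, at 0.080 for the combination (SE 0.093), so no direction is given for DFFB. TP73, a relative of p53 upstream of the pathway, read -0.12 for the combination (SE 0.093) and -0.14 for cisplatin (SE 0.076, limma adjusted p = 0.593).

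**Figure D4:**
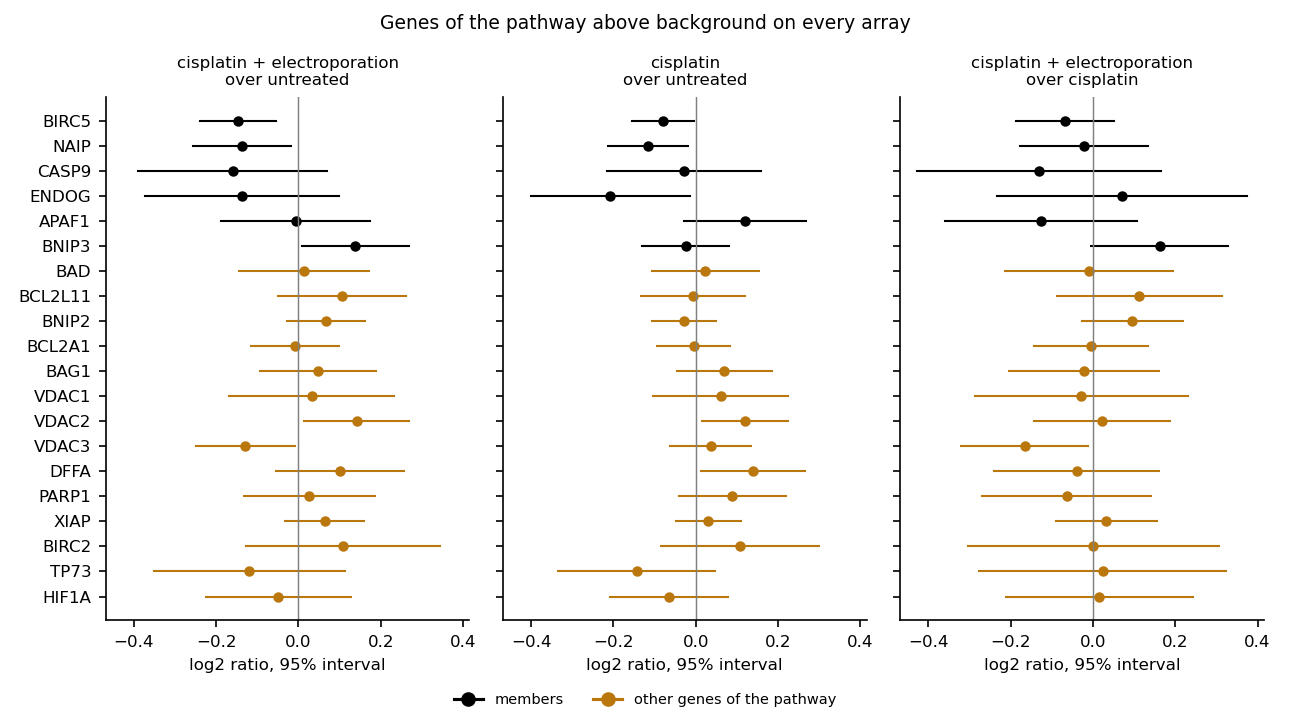
Log2 ratios with 95% intervals (limma) for the 6 members (black) and the 14 further pathway genes (brown) whose brighter probe was above background on every array: cisplatin with electroporation over untreated, cisplatin over untreated, and cisplatin with electroporation over cisplatin. All means lie between -0.21 and 0.16, and none passed the test after adjustment.

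The genes most like a member were found by the root mean square difference of the log2 ratio over the 5 arrays, among 1195 other named genes above background on every array. APAF1 had the highest mean over the 5 arrays of the members above background, and nearest to it were MAPK13 (0.0416), CXCR2 (0.0468) and ZNF232 (0.0521). ENDOG had the lowest, and nearest to it were SOX18 (0.0721), MPDU1 (0.0770) and RPS6 (0.0829). RPS6, a protein of the small ribosomal subunit, read -0.20 and -0.21 on the arrays of the combination and -0.082, -0.35 and -0.29 on those of cisplatin. These distances describe 5 arrays and carry no test.

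The lowest ratios of BIRC5, NAIP, CASP9 and ENDOG for the combination came from a change of normalization. Without the intensity-dependent loess step, with each array only centred on its median, the log2 ratio for the combination was -0.47 for BIRC5, -0.46 for NAIP, -0.51 for CASP9 and -0.40 for ENDOG. It was -0.19 for APAF1 and 0.068 for BNIP3. For cisplatin it was -0.23 for BIRC5, -0.23 for NAIP, -0.20 for CASP9, -0.33 for ENDOG, 0.025 for APAF1 and -0.055 for BNIP3. The median of the 1461 probes above background was then -0.231 for the combination and -0.106 for cisplatin, against -0.0205 and -0.0077 with loess. Other settings moved BNIP3 and APAF1 as far or further, to 0.34 and 0.17 for the combination in the authors' deposited table. NAIP passed for the combination with median centring (limma adjusted p = 0.0487), while its adjusted p lay between 0.247 and 0.924 in the other alternatives. For BIRC5 the limma adjusted p for the combination lay between 0.0837 and 0.827 over the alternatives that keep both arrays of the combination. The ratio was negative in all 19 alternatives, but several of them, such as leaving out a cisplatin array, leave the combination mean as reported by design.

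**Figure D5:**
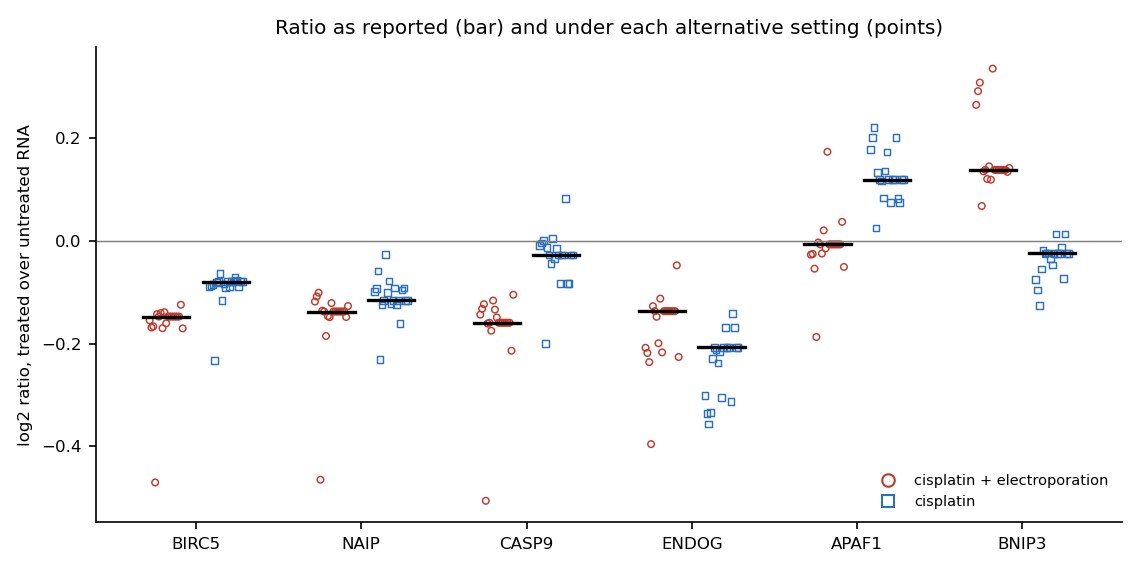
Log2 ratio of treated over untreated RNA as reported (black bars) and under each of 19 alternative settings (open points) for cisplatin with electroporation (red circles) and cisplatin (blue squares). For BIRC5, NAIP and ENDOG every point lies below 0 under both treatments, and the lowest combination points of BIRC5, NAIP, CASP9 and ENDOG come from median centring without loess. Some points repeat the reported value by design, since leaving out an array of the other group does not change it.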

How the data were processed

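RNA of treated (Cy5) and untreated (Cy3) SK-MEL28 cells was measured on 5 two-colour spotted arrays. The deposited scanner files hold raw foreground and background intensity per spot, without normalization, per the file headers. The second channel was read as Cy5, since the labels number the dyes so and log2 of channel 2 over channel 1 followed the authors' deposited table on each array (r between 0.812 and 0.889). That table holds log2 ratios whose normalization no source used here gives; its column medians lie between -0.0275 and 0.023, and it served as an alternative over its 1281 probes with a value on every array.

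Gene names came from the platform annotation, with symbols updated through gene identifiers: 2192 probes have 1 gene, 0 several and 856 none. Median foreground was background-corrected (limma 3.58.1 in R 4.3.3, normexp, offset 50), normalized by loess within arrays (span 0.3) and averaged over spots. All probes entered 1 limma model with 2 group means (3 residual and 2.47 prior degrees of freedom), two-sided, adjusted by Benjamini and Hochberg over 3048 probes (threshold 0.05). The offset draws ratios toward 0. Bounds used channel values after loess and Aquantile. The steps were tested on simulated data with log2 changes of 1 and 2. All mean ratios reported here are smaller, and recovery of changes that small was not tested. The members and lists, and the alternatives, were chosen with earlier results of these data known. Named were all members, list genes past the test (there were 0), up to 6 list genes per comparison with the largest ratio among those above background, and the 3 genes most like 2 members; a selection of the list genes is described. RPS6 was given per array after its values were seen. Probe sequences and genome positions were not used here.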

Additional observations from a re-analysis of the deposited data

Results flagged for a closer look

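BNIP2, a BCL2-interacting protein on the pathway list, read above untreated cells on both arrays of cisplatin with electroporation (0.099 and 0.035) and below them on all 3 cisplatin arrays (-0.048 to -0.011). The combination minus cisplatin was 0.096 (SE 0.049, limma adjusted p = 0.994), so the opposite directions did not pass the test of the difference. The combination lay above cisplatin throughout for 7.32% of all probes and 6.3% of those above background on every array. The share with opposite signs was not computed.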

How the results depend on the processing

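Across 336 values of the 6 genes under alternative settings, 323 kept their direction and 13 took the opposite sign. Part of the 323 could not differ, since leaving out an array of 1 group does not touch the mean of the other. Changing the variance model or the set of probes fitted leaves both means as reported, so the 323 are not independent checks. The 1 value past the threshold was NAIP for the combination with median centring (-0.465), also the 1 member probe past the test in any setting. For CASP9 after cisplatin the opposite signs were 0.0012 with plain background subtraction and 0.0049 with the first 3 listed spots, and its values without single arrays ran from -0.083 to 0.083. For APAF1 the values were 0.021 with the first 3 spots and 0.17 in the authors' table for the combination (without single arrays -0.051 to 0.037), and 5e-04 in that table for the difference. For the difference, NAIP read 0.00033 in the authors' table and ENDOG -0.062 with median centring. Without single arrays, the difference ran from -0.046 to 0.023 for NAIP and from -0.019 to 0.176 for ENDOG, and BNIP3 after cisplatin from -0.074 to 0.014.

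The number of probes past the test was 0 as reported. For cisplatin it was 4 without background correction and 1 in the authors' table. For the combination it was 10 without background correction, 35 with median centring, 1 with scale normalization, 11 with dim probes left out, 8 in the authors' table, 9 with a trended and robust variance and 2 with discordant spots left out, a setting added after seeing the data. Without single arrays it ran from 0 to 93 for the combination and from 0 to 47 for the difference; a lone array is assumed to vary like the other group. With the replicate number as a block, which drops the third cisplatin array, 0 probes passed in each comparison, and BNIP3 after cisplatin read 0.014. Deviations of same-numbered arrays from their group means correlated at 0.336 and 0.12 over probes. The deviations of the 2 combination arrays are equal and opposite by construction, so these are not 2 separate checks. With 2 shared numbers they do not establish a pairing. The causes were not tested. Signal over background limits 4 of the 10 genes to bounds or no ratio.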
